A study of Mus musculus with 4 samples.

Results

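The genes of the proteasome were followed in the aorta of mice that lack apolipoprotein E. The members are all probe sets whose platform annotation names a single gene with a symbol starting Psma, Psmb, Psmc, Psmd, Psme, Psmf or Psmg. This gave 85 of 22626 probe sets and 48 of 12393 genes, with 27 genes on 1 probe set and 21 on several. The rule reads symbols and no measured value, but it was set with earlier results of these data known. Psmc3ip, a meiotic recombination factor, and Psme3ip1, which binds the activator encoded by Psme3, meet the symbol rule without being subunits. The only probe set of Psme2 is annotated to both Psme2 and Psme2b and was left out.

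RNA came from the aorta of female apoE-/- mice aged 6 weeks, of strain C3H/HeJ (C3H below) on Western diet, C3H on chow, C57BL/6 on Western diet and C57BL/6 on chow. All mice were weaned onto chow at 3 weeks, and the Western diet was given from 4 weeks of age for 2 weeks. The labels call the Western groups extremely hyperlipidemic and the chow groups hyperlipidemic. Each of the 4 groups has 1 array and no replicate, so a difference within a pair of arrays has no test, and the sources used here do not say if RNA of several mice was pooled. No mouse with an intact Apoe gene was analysed here. The comparisons set C3H, a strain known to form small lesions, against the lesion-prone C57BL/6, and Western diet against chow.

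The proteasome degrades proteins tagged with ubiquitin. Its 20S core is a barrel of outer alpha rings, which gate the entrance, and inner beta rings, in which the subunits encoded by Psmb5, Psmb6 and Psmb7 cut. The 19S cap binds ubiquitin chains, and its ring of ATPases unfolds the substrate. Interferon gamma induces Psmb8, Psmb9 and Psmb10, whose products replace the standard cutting subunits in the immunoproteasome, and Psme1 and Psme2, which form the 11S activator cap. Leukocytes carry the immunoproteasome constitutively, and its peptides feed the Tap1 and Tap2 transporter of MHC class I presentation.

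Signals are quantile-normalised array intensities. A value at or under a floor of 83.6, the 40th percentile of all values, is taken as a bound, and a fold against it is given as "at least". A pair of arrays with both values above the floor is called measured. Levels of different probe sets are not comparable with each other. Of the 85 probe sets, 57 were above the floor on all 4 arrays (67.1%, against 38.6% of all probe sets), 21 on 1 to 3 arrays and 7 on none. Psma8, the testis form of an alpha subunit, was the single gene with no probe set above the floor, at 10.2, 18.9, 18 and 16.0. Unless stated otherwise, 4 values are in the order C3H Western, C3H chow, C57BL/6 Western and C57BL/6 chow, and a gene is represented by its brightest probe set.

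The arrays were of mixed tissue. Smooth muscle markers were above the floor on every array (10 of 10), with a median log2 level against the 4-array mean of -0.07, -0.45, 0.00 and 0.46. Brown adipocyte markers (8 of 8 above the floor) stood at -0.25, 1.16, -0.24 and -0.49 on this scale and were all highest on C3H chow. Heart muscle markers were above the floor in 3 of 10 cases on each C3H array and in 10 of 10 on each C57BL/6 array. In such bulk tissue fewer cells of a type and less RNA per cell cannot be told apart, and the part of this tissue makeup in the results below was not tested.

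Of the interferon-inducible genes, Psmb8 and Psmb9 differed most between the arrays. Psmb8, the inducible counterpart of Psmb5, had a signal of 311 on C3H Western, 223 on C3H chow, 175 on C57BL/6 Western and 107 on C57BL/6 chow. It was thus higher in C3H on both diets and higher with Western diet in both strains. Psmb9, the inducible counterpart of Psmb6, gave 235, 172, 142 and 50.6, in the same order, with C57BL/6 chow under the floor. Between strains Psmb8 was higher in C3H by 2.08-fold under chow and by 1.78-fold under Western diet. For Psmb9 the C3H excess was at least 2.06-fold under chow and 1.65-fold under Western diet.

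On Western diet, against chow, Psmb8 was higher by 1.40-fold in C3H and by 1.63-fold in C57BL/6. The corresponding folds of Psmb9 were 1.36 in C3H and at least 1.70 in C57BL/6. Values that involve C57BL/6 chow lie close to the floor and depend on it. With the floor at the 60th percentile, the log2 difference of Psmb8 was 0.48 in place of 1.06 for strain on chow and 0.13 in place of 0.71 for diet in C57BL/6, and that of Psmb9 was 0.11 and 0. The order of arrays was read from these 2 genes. Without them it was held by 3 of 45 proteasome genes (Psma3, Psmd5 and Psmd12) and by 287 of 10775 genes (2.66%) above the floor on at least 1 array.

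Psmb10, the inducible counterpart of Psmb7, behaved otherwise. Its signals were 360, 319, 352 and 228, so that C57BL/6 chow alone stood low. C3H exceeded C57BL/6 by 1.40-fold under chow and by 1.02-fold under Western diet. The Western array exceeded the chow array by 1.13-fold in C3H and by 1.55-fold in C57BL/6. Psme1, which encodes a subunit of the 11S activator, was nearly level at 929, 1045, 1055 and 894, a range of log2 0.24 over the arrays. The 3 inducible catalytic genes and Psme1 therefore did not share 1 pattern.

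The standard catalytic subunits varied little. Psmb5 had signals of 1175, 998, 1122 and 1050, Psmb6 of 1559, 1660, 1687 and 1762, and Psmb7 of 3464, 3134, 3441 and 3592. No pair of arrays differed by more than log2 0.24 in any of these genes. The log2 difference of Psmb8 exceeded that of Psmb5 by 1.13 on chow and 0.77 on Western diet for C3H over C57BL/6, and by 0.25 in C3H and 0.61 in C57BL/6 for Western diet over chow. For Psmb9 against Psmb6 these excesses were 1.13, 0.84, 0.54 and 0.83, of which the first and the last rest on the bound. For Psmb10 against Psmb7 they were 0.68, 0.02, 0.03 and 0.69. In the plot of catalytic signals by array, Psmb8 and Psmb9 spread most, while Psme1 and the standard genes are nearly level. Psmb8, Psmb9 and Psmb10 also have lower signals than Psme1 and the standard genes. The part of signal level in their spread was not tested.

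**Figure D1:**
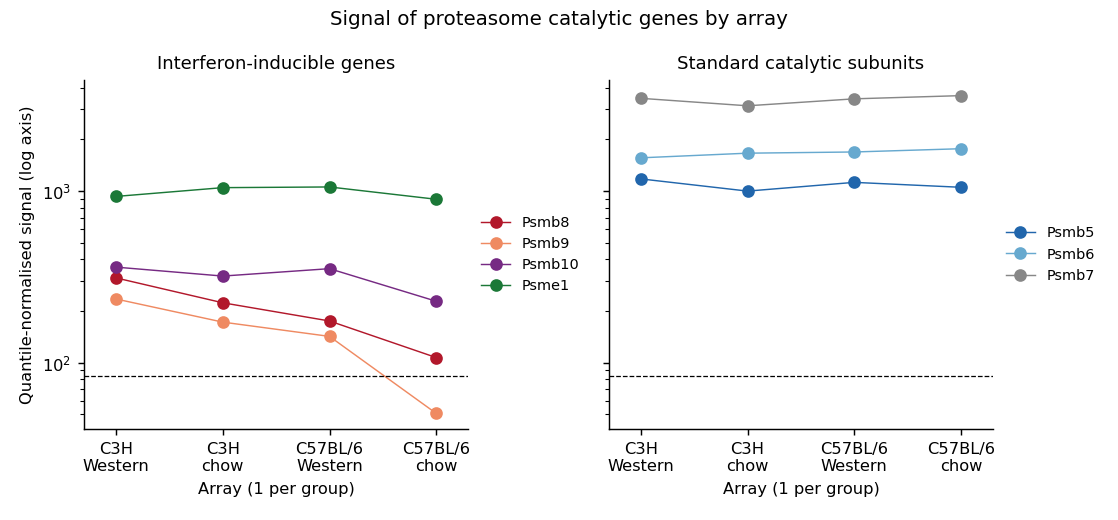
Quantile-normalised signal (log axis) of Psmb8, Psmb9, Psmb10 and Psme1 (left) and of Psmb5, Psmb6 and Psmb7 (right) on the 4 arrays, 1 point an array, with the floor of 83.6 dashed. Psmb8 and Psmb9 step down in one order, Psmb10 stands low on C57BL/6 chow alone, and the other 4 genes are nearly level.

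Promoters of the inducible genes are shown because Psmb8 and Psmb9 had one order of arrays and Psme1 another, with Psmb5 for contrast. They come from RefSeq (GRCm38.p6, a C57BL/6J assembly) and run from 250 bases before to 50 bases after the annotated start. Capitals mark matches, on either strand, to the core of the interferon-stimulated response element (GAAA, then any 2 bases, then GAAA), to the gamma-activated site bound by STAT factors (TTCNNNGAA), to the antioxidant response core (TGACNNNGC) or to the CCAAT box (CCAAT), where N is any base. The windows lie at chr17:34197945-34198244 (plus strand) for Psmb8, chr17:34187281-34187580 (minus) for Psmb9, chr14:55578244-55578543 (plus) for Psme1 and chr14:54617946-54618245 (minus) for Psmb5.
Psmb8: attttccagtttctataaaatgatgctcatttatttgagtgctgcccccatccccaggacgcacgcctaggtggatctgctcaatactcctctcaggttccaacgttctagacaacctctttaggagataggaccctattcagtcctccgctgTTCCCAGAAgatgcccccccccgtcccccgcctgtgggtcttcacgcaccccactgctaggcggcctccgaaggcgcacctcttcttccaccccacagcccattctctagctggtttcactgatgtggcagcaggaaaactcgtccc
Psmb9: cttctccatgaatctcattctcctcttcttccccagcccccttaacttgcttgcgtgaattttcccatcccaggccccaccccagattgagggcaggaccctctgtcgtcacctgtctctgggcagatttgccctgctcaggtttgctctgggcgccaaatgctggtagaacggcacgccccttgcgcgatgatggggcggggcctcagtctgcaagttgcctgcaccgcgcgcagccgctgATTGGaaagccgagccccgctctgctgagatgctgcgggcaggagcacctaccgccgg
Psme1: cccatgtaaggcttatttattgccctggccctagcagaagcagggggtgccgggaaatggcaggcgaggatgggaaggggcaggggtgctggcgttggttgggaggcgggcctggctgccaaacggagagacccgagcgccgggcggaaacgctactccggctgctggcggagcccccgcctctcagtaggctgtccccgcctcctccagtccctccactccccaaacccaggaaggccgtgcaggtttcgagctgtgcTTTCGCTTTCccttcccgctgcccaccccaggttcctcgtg
Psmb5: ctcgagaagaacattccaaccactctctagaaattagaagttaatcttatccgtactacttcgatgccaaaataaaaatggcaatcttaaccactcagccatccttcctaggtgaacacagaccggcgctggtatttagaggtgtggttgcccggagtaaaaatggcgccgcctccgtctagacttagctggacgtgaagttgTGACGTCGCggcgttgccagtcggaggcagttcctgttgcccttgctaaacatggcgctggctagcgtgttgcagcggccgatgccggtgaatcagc

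The Psmb8 window holds 1 gamma-activated site match, which begins 97 bases before the start, and the Psme1 window 1 interferon-stimulated response core, on the reverse strand from base 10 after the start. Psmb9 shows a CCAAT box match from 8 bases before the start and Psmb5 an antioxidant response core from 47 bases before it. The Psmb10 window holds none of the 4 motifs. Promoters of 40 of the 48 genes are in the table (43 windows). The interferon-stimulated core occurs in 11.6% of them and 3.44% of all 32851 windows, the gamma-activated site in 6.98% and 8.3%, the antioxidant core in 14% and 12.4%, and the CCAAT box in 34.9% and 37.4%. The 5 windows with the interferon-stimulated core are those of Psmb3, Psmd4, Psmd9, Psme1 and Psmg4, so Psme1 is the only inducible gene among them. A match is a run of letters and shows no binding.

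Psmb8 and Psmb9 lie in the major histocompatibility complex on chromosome 17, interleaved with Tap1 and Tap2. The annotated starts of Psmb9 and Tap1 point away from each other and are 226 bases apart, so their windows share 275 bases. The signals of Tap1 did not follow those of Psmb9. Its brightest probe set gave 34.4, 90.9, 254 and 42.1, above the floor on C3H chow and C57BL/6 Western only, and its other 3 sets were under the floor on all arrays. Tap2 had 220, 521, 302 and 187 and was higher in C3H by 2.78-fold under chow but lower by 1.37-fold under Western diet.

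Further genes of class I antigen processing were mixed. Tapbp, the tapasin that links transporter and class I molecule, had 1801, 1594, 2073 and 2141 by its brighter probe set. By this set Tapbp was lower in C3H on both diets, by 1.34-fold under chow and 1.15-fold under Western diet. The dimmer Tapbp set gave 342, 160, 565 and 486, a C3H deficit of 3.04-fold under chow and 1.65-fold under Western diet. Between the C3H arrays this dimmer set differed by 2.14-fold, with the chow signal the lower. B2m, the class I light chain, gave 7398, 5076, 10504 and 8263 by its brighter probe set and 11107, 5488, 8769 and 3098 by the other, so the sets disagree on the direction between strains. Irf1, a transcription factor induced by interferon gamma, had 350, 382, 443 and 424. Of 15 genes of this list, 0 had the order of arrays seen for Psmb8, against 2.66% of all genes. With so small a share, 0 of 15 shows no departure from all genes. This count and those that follow use the brightest set of each gene. Of those measured, 1 of 11 on chow (Tap2) and 0 of 11 on Western diet differed at least 2-fold between strains, against 17.1% and 8.27% of all genes measured. For diet 1 of 12 in C3H (Tap2, lower) and 0 of 10 in C57BL/6 did, against 12.3% and 7.67%.

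Leukocytes, the cells richest in the immunoproteasome, were followed by 22 marker genes. Their summed signal was 7440 on C3H Western, 4001 on C3H chow, 5949 on C57BL/6 Western and 4113 on C57BL/6 chow, and 18, 13, 16 and 13 of them were above the floor. Against the 4-array mean their median log2 level was 0.26, -0.29, 0.24 and -0.37, so both Western arrays stood above both chow arrays. For the 3 inducible catalytic genes this median was 0.66, 0.22, -0.06 and -0.82. Leukocyte markers were thus higher with Western diet, as Psmb8 and Psmb9 were. For C3H over C57BL/6 the median log2 difference of the markers was 0 on chow and 0.02 on Western diet, with values under the floor raised to it. For the inducible catalytic genes it was 1.04, which is the bound of Psmb9, and 0.72. Only 9 and 16 of the 22 markers were measured in these pairs, with medians of -0.17 and 0.13. The measured markers ran from -0.91 to 1.03 on chow and from -1.45 to 1.01 on Western diet.

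Single markers varied around these medians. Ptprc, the common leukocyte antigen, gave 123, 34.1, 334 and 105, highest on C57BL/6 Western. The macrophage genes Csf1r (1519, 1082, 857 and 800) and Cd68 (282, 230, 178 and 135) were the 2 of 20 detected markers with the array order of Psmb8 and Psmb9. That order was held by 2.66% of all genes above the floor on at least 1 array, and also by 2 of 13 proteasome partners given below. Among lymphocyte markers Cd3e reached 93.2 at most, little above the floor, and Cd79b lay between 99.9 and 129. The part of leukocyte content in the Psmb8 and Psmb9 values was not tested.

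**Figure D2:**
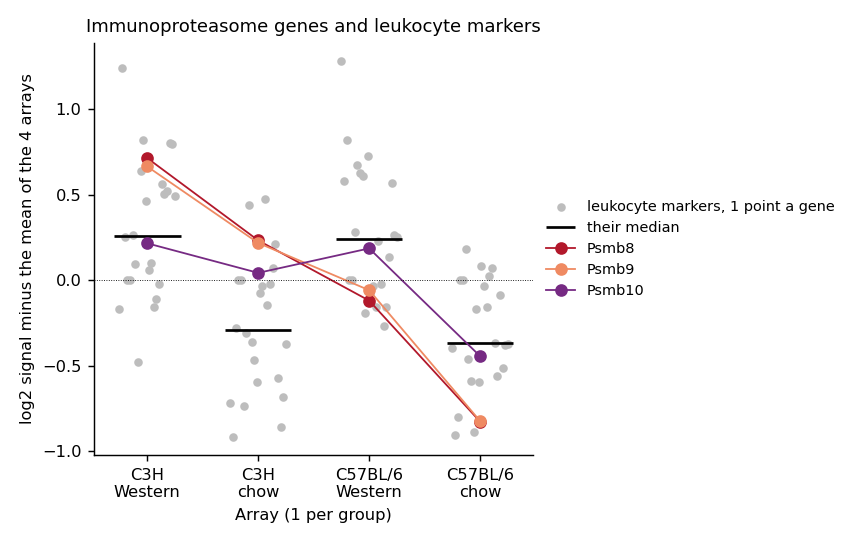
Log2 level against the 4-array mean (vertical) for 22 leukocyte markers (grey points, 1 a gene, with their median as a black bar) and for Psmb8, Psmb9 and Psmb10 (lines), with values under the floor raised to it. The marker medians are higher on both Western arrays (0.26 and 0.24) than on both chow arrays (-0.29 and -0.37), whereas Psmb8 and Psmb9 also separate C3H from C57BL/6.

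The constitutive subunits, 31 genes of the 20S core and the 19S cap, were above the floor on all arrays and stayed close to level. Their median signal was 1151 on C3H Western, 1139 on C3H chow, 1082 on C57BL/6 Western and 1041 on C57BL/6 chow. The median log2 difference for C3H over C57BL/6 was 0.01 on chow and 0.01 on Western diet, and for Western diet over chow it was 0.02 in C3H and 0.09 in C57BL/6. Over all genes with values under the floor raised to it these medians were 0. For the 4 interferon-inducible genes they were 0.76 on chow, 0.38 on Western diet, 0.31 in C3H and 0.67 in C57BL/6, with Psmb9 at its bound on chow and in C57BL/6.

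Over the 4 arrays the median range of a constitutive subunit was log2 0.46, and 22 of 31 (71.0%) stayed within 1.5-fold. Of 5646 genes above the floor on all arrays the median range was 0.82 and 27.8% stayed within 1.5-fold. Bright genes vary less on such arrays. Among genes with a mean signal of at least 500 the median range was 0.38 for 27 constitutive subunits and 0.68 for 1875 genes. Psmb8 had a range of 1.54 and Psmb10 of 0.66, but both have mean signals under 500. Of the 5646 genes, whose median mean signal was 336, 35.65% had a range of at least 2-fold (log2 1).

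**Figure D3:**
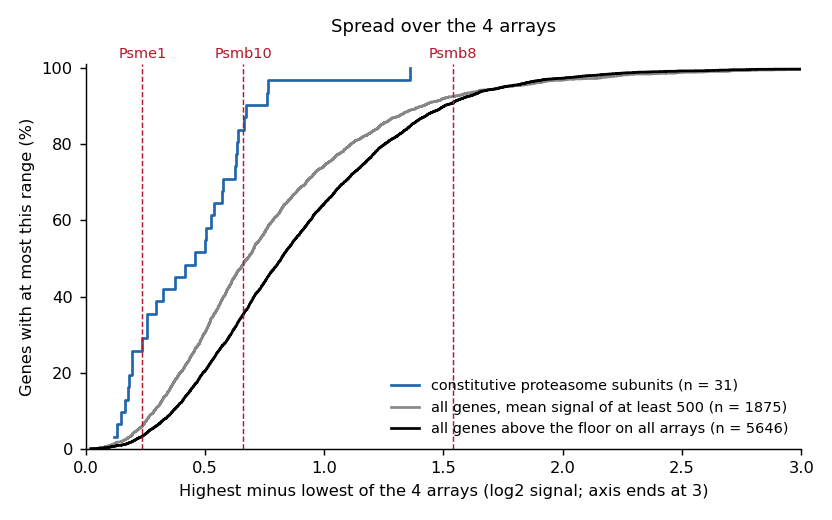
Cumulative share of genes (vertical, %) by their range over the 4 arrays (horizontal, log2 signal), for 31 constitutive subunits, for all genes above the floor on all arrays and for those of them with a mean signal of at least 500. The curve of the constitutive subunits lies to the left, with a median of 0.46 against 0.82 and 0.68, and dashed lines give Psme1 (0.24), Psmb10 (0.66) and Psmb8 (1.54).

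In the alpha rings, Psma2 (1339, 1447, 1484 and 1433) and Psma1 (774, 746, 846 and 784) were the most even, with ranges of log2 0.15 and 0.18. Psma4 had 848, 844, 1007 and 1008 and was lower in C3H on both diets, by 1.19-fold on each. Psma3 had 2375, 2288, 2276 and 1780, with C57BL/6 chow alone standing low. Psma5 was highest on C57BL/6 Western by its brightest set (614, 633, 915 and 717), while its second set was highest on C3H chow (460, 654, 626 and 321). Psma7 was highest on C3H Western by both of its sets (1447, 1210, 1020 and 1269 by the brightest), which disagreed on the diet difference in C57BL/6, at log2 -0.32 and 0.37. Psma6 had the widest range of the constitutive subunits, 1.36, with 1968, 2045, 1273 and 798 by its brightest probe set, which was 2.56-fold higher in C3H on chow. Its second probe set gave 1190, 1541, 1487 and 1194, a difference of 1.29-fold on chow and 1.25-fold in the opposite direction on Western diet.

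Of the structural beta subunits, Psmb4 had 2612, 2198, 2131 and 2206, Psmb2 had 936, 1222, 890 and 1041, and Psmb1 had 1330, 1139, 1380 and 950. Psmb3 exceeded C57BL/6 in C3H by 1.58-fold under chow and by 1.14-fold under Western diet (3219, 3959, 2833 and 2500), while its second probe set was level at 767, 817, 824 and 861. The chow difference of Psmb3 was thus found by 1 of its 2 probe sets.

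The ATPases of the 19S base, which drive unfolding, were all higher with Western diet in C3H by their brightest probe sets, but not by all of their other sets. The 6 log2 differences ran from 0.11 to 0.63 with a median of 0.23. Of all genes measured in this comparison, 3288 of 6690 were higher. The same count of ATPase sets was found under each of the other 3 scalings, but these reuse the same arrays. With equal array medians 26 of 31 constitutive subunits were higher as well. Of the 4 further ATPase sets above the floor on any array, that of Psmc2 was higher by 0.08. Those of Psmc1, Psmc4 and Psmc6 were lower with Western diet in C3H, with log2 differences of -0.81, -1.57 and -1.16 that are all bounds against a Western value under the floor. In C57BL/6 3 of 6 were higher by the brightest sets, with a median of 0.03, against 3385 of 6776 genes measured. Psmc3 had the largest difference in C3H, 1.55-fold (1160, 749, 1026 and 961). On chow 5 of 6 brightest sets were lower in C3H, against 3182 of 6605 genes measured. Psmc1 (787, 627, 782 and 1067) was 1.70-fold lower by its brightest set and 1.32-fold higher by the other (147 on C3H and 111 on C57BL/6). Psmc5 (461, 396, 542 and 589), with a single set, was 1.49-fold lower. Both comparisons use the C3H chow array, on which none of the 6 was highest. Psmc2 was the most even constitutive subunit of all, at 2294, 2127, 2112 and 2165, a range of 0.12. Psmc4 (562, 477, 572 and 369) and Psmc6 (675, 626, 974 and 648) were higher with Western diet in C57BL/6, by log2 0.63 and 0.59.

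Among the 11 non-ATPase subunits of the 19S cap, 9 were higher with Western diet in C57BL/6, with a median log2 difference of 0.24, and 3 in C3H, with a median of -0.03. Over all genes measured, 3385 of 6776 were higher with Western diet in C57BL/6 and 3288 of 6690 in C3H. The C3H median changes sign with the scaling, between -0.03 and 0.20. The C3H count was 6 of 11 with the deposited values and 8 of 11 with equal array medians, so it depends on the scaling. In C57BL/6 the count under the other scalings was 8 to 10 of 11. Psmd3, a scaffold subunit of the lid, had 573, 621, 678 and 401 and was 1.69-fold higher with Western diet in C57BL/6 and 1.55-fold higher in C3H on chow. C57BL/6 chow, low here, is shared by both of these comparisons. Psmd1 (1151, 1165, 1082 and 810) and Psmd8 (1857, 2221, 1699 and 1437) were likewise lowest on that array. Psmd7 stood low on C3H chow (411, 258, 395 and 379) and differed by 1.59-fold between the C3H arrays. Psmd2, which encodes a scaffold of the base, and Psmd6, a lid subunit, were even, with 1075, 1208, 1125 and 1162 and with 1125, 1110, 1101 and 1207. Psmd14, the deubiquitinase of the lid, had 797, 811, 999 and 807, and the ubiquitin receptor gene Psmd4 had 1595, 1906, 1804 and 1791.

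Several genes for assembly factors lay near or under the floor. Psmg1 to Psmg4 encode chaperones that build the alpha ring. Psmg1 had 317, 387, 538 and 286, and was 1.70-fold lower in C3H on Western diet and 1.88-fold higher with Western diet in C57BL/6. Psmg4 gave 248, 209, 268 and 75.4, so that C57BL/6 chow was under the floor and Western diet at least 3.21-fold higher in C57BL/6. Psmg3 was above the floor on both Western arrays (211 and 167) and under it on both chow arrays (20.6 on C3H and 68.1 on C57BL/6), so that it was at least 2.53-fold higher in C3H and at least 2.00-fold higher in C57BL/6 with Western diet. Psmg2 had 174, 142, 130 and 145 by its brightest set. Its other set gave 134, 250, 208 and 16.5, so that C57BL/6 chow was under the floor, with C3H at least 3.00-fold higher on chow and Western diet at least 2.49-fold higher in C57BL/6.

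Chaperones of the 19S base were mixed. Psmd10, also known as the oncoprotein gankyrin, had 205, 51.6, 88.0 and 59.7 and was 2.33-fold higher in C3H on Western diet. Psmd9 stood low on C3H chow by both of its probe sets (146, 66.3, 177 and 142 by the brighter one and 106, 39.2, 165 and 172 by the other). Psmd5 was even, at 459, 447, 378 and 364. Psmf1, which encodes an inhibitor of the 20S core, had 272 on C3H Western and 112 on C3H chow by its brightest set, a 2.42-fold difference, and was under the floor on both C57BL/6 arrays. Of its other 3 sets, 1 was under the floor on every array, 1 was above it on C57BL/6 chow only (110) and 1 on the chow arrays only (161 on C3H and 97.2 on C57BL/6).

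The remaining activators were above the floor on every array by their brightest probe sets. Psme3 encodes a nuclear activator that works without ubiquitin and had 340, 201, 314 and 274, with C3H chow lowest, while a second set gave 133, 197, 182 and 31.7, with C57BL/6 chow lowest. Psme4 encodes a large nuclear activator and had 450, 455, 515 and 443. Of the genes that carry the symbol only, Psme3ip1 had 293, 395, 258 and 374 and was lower with Western diet in both strains, by 1.35-fold for C3H and 1.45-fold for C57BL/6. Psmc3ip was above the floor on 3 arrays, at 110 on C3H chow, 109 on C57BL/6 Western and 147 on C57BL/6 chow.

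**Figure D4:**
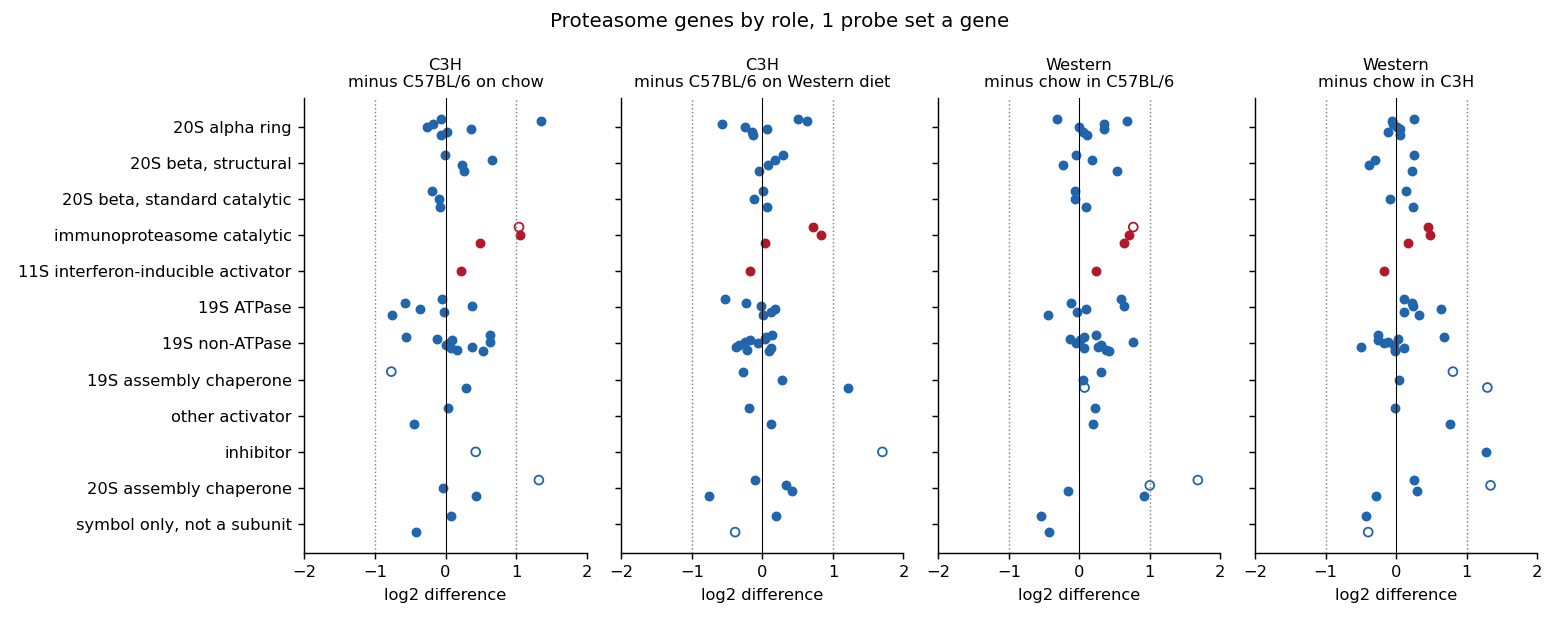
Log2 differences (horizontal) of proteasome genes, 1 point a gene, by role (rows) in the 4 comparisons, with dotted lines at 2-fold. Open points are bounds against a value under the floor, and inducible genes are red. Most constitutive subunits lie near 0, Psmb8 and Psmb9 lie to the right in each panel, and the wide points belong to dim assembly factors, the inhibitor and Psma6.

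Counted over probe sets, few members differed at least 2-fold. For C3H over C57BL/6 on chow 4 of 61 measured probe sets were higher and 0 lower (6.56% in all, against 17.1% of all probe sets, 8.2% higher and 8.94% lower). These were the sets of Psmb8 and Psma6 and single sets of Psma5 and Psmd11. On Western diet 1 of 65 was higher (Psmd10) and 2 lower (single sets of Psmd11 and Psme4), 4.62% against 8.41% (4.17% higher and 4.24% lower). For Western diet over chow 1 of 64 was higher (Psmf1) and 1 lower (a set of Psmd11) in C3H, 3.12% against 12.3% (6.4% higher and 5.95% lower), and 2 of 61 were higher (single sets of Psmd11 and Psmd13) and 0 lower in C57BL/6, 3.28% against 7.76% (3.79% higher and 3.97% lower).

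At 1.5-fold the split in C57BL/6 was one-sided, with 13 of 61 members higher with Western diet and 0 lower (21.3%, against 28% of all probe sets, with 13.9% higher and 14.1% lower). In C3H 5 of 64 were higher and 2 lower (10.9% against 34.6%, which was 17.5% higher and 17.1% lower). Between strains 9 of 61 were higher in C3H and 2 lower on chow (18% against 41.3%, which was 21.1% higher and 20.1% lower), and 4 of 65 higher and 8 lower on Western diet (18.5% against 27.1%, which was 13.5% higher and 13.6% lower). The share of members past either threshold was below that of all probe sets in each comparison.

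Different probe sets of a gene often disagreed. Psmd11 has 6 sets, and the log2 difference over those measured ran from -0.27 to 1.27 for C3H over C57BL/6 on chow and from -1.15 to 0.37 on Western diet. For Western diet over chow it ran from -1.07 to 0.46 in C3H and from -0.17 to 1.22 in C57BL/6. A set of Psmd4 was far higher in C3H, at 290 and 226 on Western diet and chow against 11.7 and 29.2, both under the floor, in C57BL/6, while the brightest set of this gene was level. Psme3 spread by log2 1.32 for Western diet over chow in C3H, and sets of Psmd13 by 1.28 in the same comparison. A second set of Psme4 was 2.43-fold lower in C3H on Western diet (183 on C3H and 446 on C57BL/6), where its brightest set was 1.14-fold lower.

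Between measured sets of 1 gene the pooled SD of the log2 difference was 0.46 for strain on chow, 0.46 for strain on Western diet, 0.47 for diet in C3H and 0.40 for diet in C57BL/6 (14 or 15 genes each). The SD over all measured members was 0.45, 0.44, 0.40 and 0.40. The spread among members was thus of the size of the disagreement between sets of 1 gene, but both SDs rest partly on the same sets. With 1 set a gene, the SD over measured member genes was 0.42, 0.36, 0.34 and 0.34. Psmb8, Psmb9, Psmb10 and Psme1 have a single set each.

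**Figure D5:**
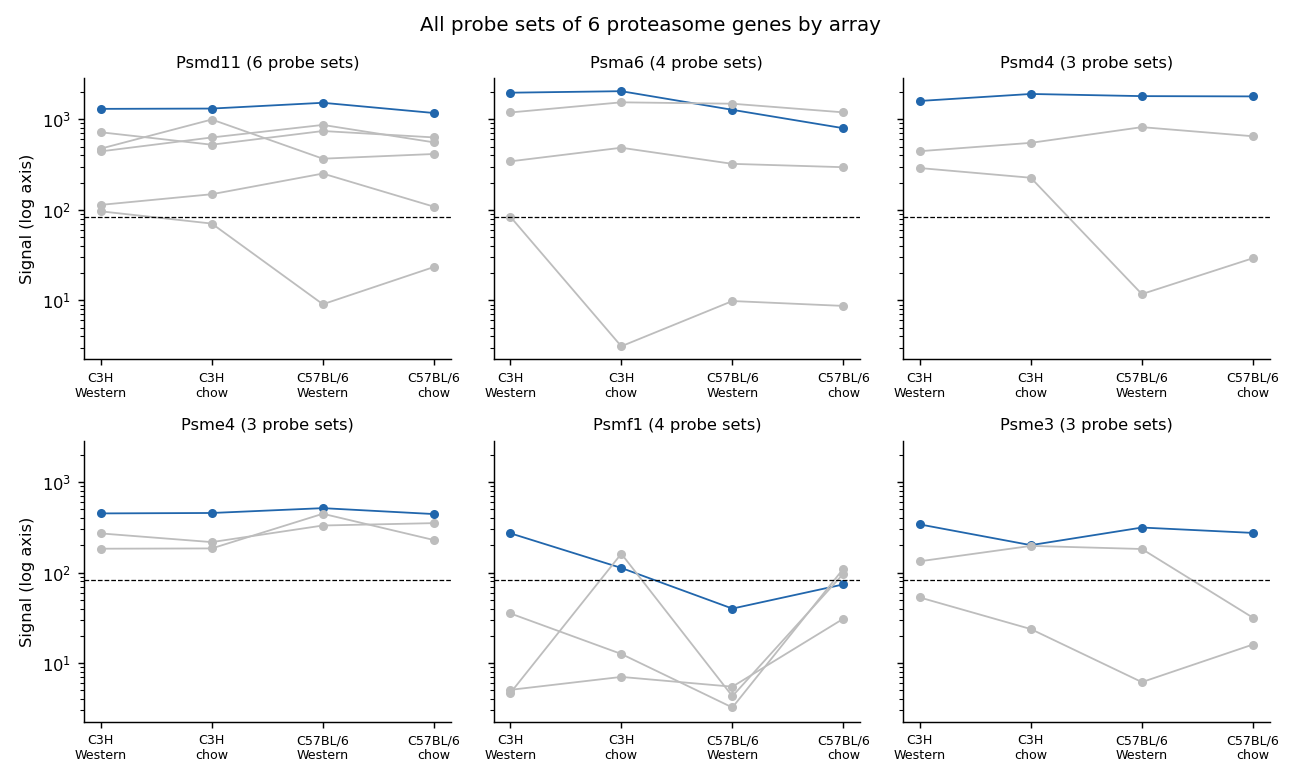
Signals (log axis) of all probe sets of 6 proteasome genes on the 4 arrays, with the representative set in blue, further sets in grey and the floor of 83.6 dashed. The blue lines of Psmd11, Psmd4 and Psme4 are nearly level, while grey sets of the same genes differ widely between arrays.

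The members were also tested in an additive limma fit with terms for strain and diet over all 4 arrays. With no replicates, the error is estimated from the strain by diet interaction, shared across probe sets by eBayes. At a limma adjusted p under 0.05 the strain term was called for 0 of 73 members and for 57 of 14915 probe sets (0.382%). At an unadjusted p under 0.05 there were 3 members and 873 probe sets (5.85%). The 3 were the brightest set of Psma6 (log2 0.99 ± 0.31 SE, limma adjusted p = 0.434), the discordant set of Psmd4 (limma adjusted p = 0.618) and a set of Psmd11 (0.82 ± 0.38, limma adjusted p = 0.828). The Psmd4 set was under the floor on both C57BL/6 arrays, which limma took as measured, and its C3H excess is at least 2.71-fold on chow and at least 3.46-fold on Western diet.

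Psmb8 had a strain term of log2 0.95 ± 0.62 SE (limma adjusted p = 0.847) and Psmb9 of 1.25 ± 0.82 (limma adjusted p = 0.847), in which limma took the C57BL/6 chow signal under the floor as measured. For diet 0 of 73 members and 0 of 14915 probe sets passed in limma, and at an unadjusted p under 0.05 there were 0 members and 367 probe sets (2.46%). The diet terms were 0.60 ± 0.62 for Psmb8, 0.97 ± 0.82 for Psmb9, 0.40 ± 0.46 for Psmb10 and 0.03 ± 0.31 for Psme1 (limma adjusted p = 0.9996 for each). The smallest two-sided p that an exact permutation of 4 arrays allows is 0.333.

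The response to diet was set side by side in the strains. Over genes above the floor on all arrays, the difference of the responses (C3H minus C57BL/6) had a log2 median of -0.16 for 31 constitutive subunits (12 above 0 and 19 below) and -0.41 for Psmb8, Psmb10 and Psme1 (0 above and 3 below). None of these genes differed at least 2-fold in its response, against 25.3% of 5646 genes. The contrast has no test, because it uses up the last degree of freedom.

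Partners of the proteasome outside the symbol rule were mixed. Of 13 genes, 12 were above the floor on all arrays, and 7 of these stayed within 1.5-fold (58.3%, against 27.8% of all genes), while Usp14, Ecpas, Uchl5, Ufd1 and Vcp did not. On Western diet 10 of 13 were lower in C3H (median log2 -0.19, 3 past 1.5-fold), and 10 of 13 were lower with Western diet in C3H (median -0.22). Over all genes measured these medians were 0.00 and -0.01, and 3372 of 6806 and 3397 of 6690 genes were lower. In the first comparison 915 of the 6806 were lower past 1.5-fold. Both comparisons use the C3H Western array. Pomp and Nploc4 held the array order of Psmb8 (2 of 13 partners, against 2.66% of all genes). Pomp, which helps the core mature, had 1536, 1437, 1319 and 1261, and Sem1, a small lid subunit, had 998, 1159, 1050 and 1025. Nfe2l1, the transcription factor that raises subunit genes when proteolysis fails, had 689, 827, 879 and 880, and Nfe2l2, a factor of the antioxidant response, had 407, 452, 473 and 574. Both were lower in C3H on both diets, with log2 differences of -0.09 (chow) and -0.35 (Western) for Nfe2l1 and of -0.35 and -0.21 for Nfe2l2. Usp14, a deubiquitinase of the cap, was 2.59-fold higher with Western diet in C57BL/6 (180, 191, 332 and 128). Ecpas, which encodes a proteasome adaptor and scaffold, had 267, 500, 391 and 348, and Uchl5, a deubiquitinase of the cap, had 378, 207, 288 and 337. Vcp, the unfoldase, had 2025, 2954, 3107 and 2533 and its cofactor Ufd1 had 219, 323, 371 and 335, both lowest on C3H Western by their brightest sets. A second set of Ufd1 gave 294, 280, 286 and 225 and was highest on C3H Western and lowest on C57BL/6 chow. Partners that differed at least 2-fold between strains were 0 of 12 measured on chow and 0 of 13 on Western diet (17.1% and 8.27% of all genes), and for diet 0 of 13 in C3H and 1 of 12 in C57BL/6, Usp14 (12.3% and 7.67%). Nploc4, another cofactor of Vcp, had 348, 286 and 254 on the first 3 arrays and was under the floor on C57BL/6 chow (42.5), so that C3H exceeded C57BL/6 by at least 3.43-fold under chow, and Western diet exceeded chow by at least 3.04-fold in C57BL/6.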

How the data were processed

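Per the labels' protocols, Trizol was used for total RNA, of which 8 ug gave the biotinylated cRNA hybridised to 1-colour Affymetrix arrays. The authors deposited linear intensities for 22690 rows. The 64 control rows were dropped. The deposited arrays share a trimmed mean (250.11 to 250.12), and the sources used here do not give the software behind them. Log2 values were quantile normalised in limma 3.58.1 (R 4.3.3). No detection calls were used. Precision is limited by having 4 arrays.

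Gene names came from the platform annotation (20380 probe sets with 1 gene, 691 with several, 1555 unnamed here), and all 85 members matched RefSeq GRCm38.p6 by Entrez identifier with 0 symbols updated. The limma fit used the 14915 probe sets that exceeded the floor on 2 arrays or more, eBayes with a mean trend (prior of 17.3 degrees of freedom, 1 residual) and Benjamini-Hochberg adjustment.

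Named were the inducible genes and their standard counterparts, up to 4 genes per direction and comparison with the largest measured difference, up to 5 with discordant probe sets, members under the floor, and fixed context genes. Further constitutive genes are given to complete each role and were chosen with their values known. The members, lists and thresholds were chosen with earlier results of these data known. Alternatives tried were 3 scalings (as deposited, medians made equal, or cyclic loess), a lower and a higher floor (25th and 60th percentile), 1.5-fold, the mean over probe sets, no mean trend, no filter and 1 probe set per gene. Python 3.11.15 with numpy 2.4.6, pandas 2.3.3 and matplotlib 3.10.9 did the remaining computing and plots.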

Additional observations from a re-analysis of the deposited data

How the results depend on the processing

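The medians of the inducible genes kept their sign under each scaling, floor and probe set choice tried, but their size rests on dim signals. With the floor at the 60th percentile they were 0.35 for strain on chow and 0.18 for diet in C57BL/6, the response difference was -0.0275, and Psmb9 in C57BL/6 lay under the floor on both diets. With equal array medians the constitutive medians were -0.19 for strain on chow and 0.24 for diet in C3H, and their response difference was -0.0349. Under that scaling the diet difference in C3H over all probe sets had a median of 0.11. The split of all probe sets past 2-fold into higher and lower was then 646 and 1053 for strain on chow (863 and 941 as reported), 544 and 397 for diet in C57BL/6 (414 and 433) and 865 and 455 for diet in C3H (684 and 635). With the mean over probe sets the constitutive median for strain on chow was 0.16. Counts of members past 2-fold for strain on chow, strain on Western diet, diet in C57BL/6 and diet in C3H became 9, 6, 6 and 6 with the lower floor (25th percentile) and 11, 12, 13 and 7 at 1.5-fold. With the floor at the 60th percentile the last 3 became 1, 0 and 1. With equal medians strain on chow gave 2, diet in C57BL/6 gave 5 and diet in C3H gave 1. The cause of these moves was not tested beyond the choices themselves. Of 96 comparisons of these summaries with an alternative, 75 stayed close. No member passed limma for strain or diet under any alternative (lowest adjusted p 0.212 for strain, with no filter, and 0.771 for diet, with no mean trend; 1 to 4 and 0 to 2 members at an unadjusted p under 0.05). No paired analysis was possible because each group has 1 array. No array could be left out of the limma fit, which has 1 residual degree of freedom.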
